A study of Homo sapiens with 4 samples.

Results

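The genes described here are 35 lineage and developmental transcription factors and their partners, the regulators that set which kind of cell a cell is. The families were chosen with earlier results of these data known, and within them the genes were taken by name from the protein-coding genes of the deposited table, by the family stems KLF, SOX, FOX, HOX, ETS, ELF, TWIST, ID, HES, BHLHE, MYC, TEAD, CITED, NR, RAR and PBX among others, with no threshold on a measured value. This gave 35 of the 2897 genes in the table. The same rule looked for GATA, HNF, CDX, ZEB, SNAI, ETV, SMAD, RUNX, TFAP2, GRHL, OVOL, MYCN, RXR, PPAR, LHX, MEIS and TBX genes, for which no row matched, and these were not analysed here. Not every match binds DNA. PBXIP1 encodes a protein that binds PBX factors, CITED2 and CITED4 encode coactivators, and ID1 and ID2 encode helix-loop-helix proteins that lack a DNA-binding region and block their partners.

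RNA was sequenced from AGS-1 and HGC-27 cells, both wild type by their labels and both cultured in RPMI-1640 with serum. AGS-1 is labelled as a gastric adenocarcinoma line and HGC-27 as a gastric carcinoma line. For each line there was 1 library of untreated cells (control) and 1 library of cells given isorhamnetin (ISO), a plant flavonoid and methylated form of quercetin, at 50 μM for 24 h according to the labels, so 4 libraries in all. The text of the study speaks of duplicates, but the labels and the table hold a single column per condition and line, and whether a column is a single library was not given. The text of the study gives a lower ISO dose for the sequenced cells, and these sources do not settle which dose was used. Each line is an established culture of a single tumour, so the difference between the lines stands for these cultures and not for types of gastric cancer. The comparisons made were ISO against control within each line, the ISO change shared by both lines, and AGS-1 against HGC-27.

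Transcription factors bind short DNA motifs near the genes they regulate, and cells of a lineage are recognised by the combination they hold. In the gastrointestinal tract FOXA factors open chromatin of gut genes, KLF4 and KLF5 are paired regulators of epithelial differentiation and growth, SOX9 marks progenitors, and ELF3 is an epithelial ETS factor. TWIST1 drives the loss of epithelial features known as epithelial to mesenchymal transition, and HOX genes record position along the body axis.

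The values are FPKM, fragments counted on a gene relative to its length and to the depth of its library, so levels can be compared between genes. Library totals, recovered from the FPKM values, ranged from 15235004 to 20199425 fragments. The listed genes held 78.5% of fragments in the control of AGS-1 and 64.4% with ISO, and 61.0% and 60.0% of those of HGC-27. Of all genes in the table, 98.1% had a mean of at least 10 FPKM, as had 33 of the 35 members. A member that is near 0 in one line is therefore in the table through its level in the other line, and a gene low in both lines would not be seen.

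The labels of the lines were compared with marker genes. Of 8 epithelial markers 5 were in the table, EPCAM, KRT8, KRT18, KRT19 and CLDN4. Their summed level was 2130 FPKM in untreated and 1360 FPKM in ISO-treated AGS-1 cells. In HGC-27 it was 4.42 and 3.58 FPKM, with KRT19 at 0. Of 8 mesenchymal markers 4 were in the table, VIM, SPARC, COL1A1 and COL5A1. Their summed level was 10.6 and 7.73 FPKM in AGS-1 against 805 and 700 FPKM in HGC-27. HGC-27 thus lacked nearly all of the epithelial keratin signal that a gastric carcinoma is usually recognised by, and AGS-1 held nearly no VIM or SPARC. Markers without a row, among them CDH1, CDH2 and FN1, could not be checked. Of 9 blood and endothelial markers only LYZ was in the table, at 594 and 314 FPKM in AGS-1 but 0 in both HGC-27 libraries, and gastric mucosa also makes LYZ. The lines thus differ in these markers beside every line difference given below, and the part of that in the results was not tested.

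Both lines expressed most of these regulators, but with different leading genes. The level by gene and library ranged from 0 to 407 FPKM, and 26 of the 35 members had at least 1 FPKM in every library. ID1, an inhibitor of helix-loop-helix factors that is induced by BMP signals, had the highest mean level of the members at 242 FPKM, and FOXF2 had the lowest at 4.502 FPKM. In the AGS-1 control the highest member was FOXQ1, a forkhead factor, at 407 FPKM, followed by ID1 at 374 FPKM, SOX9 at 274 FPKM and the coactivator CITED4 at 264 FPKM. In the HGC-27 control the highest member was TWIST1 at 334 FPKM, ahead of ID1 at 121 FPKM. ID1 was thus high in both lines, while the other leading genes differed.

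**Figure D1:**
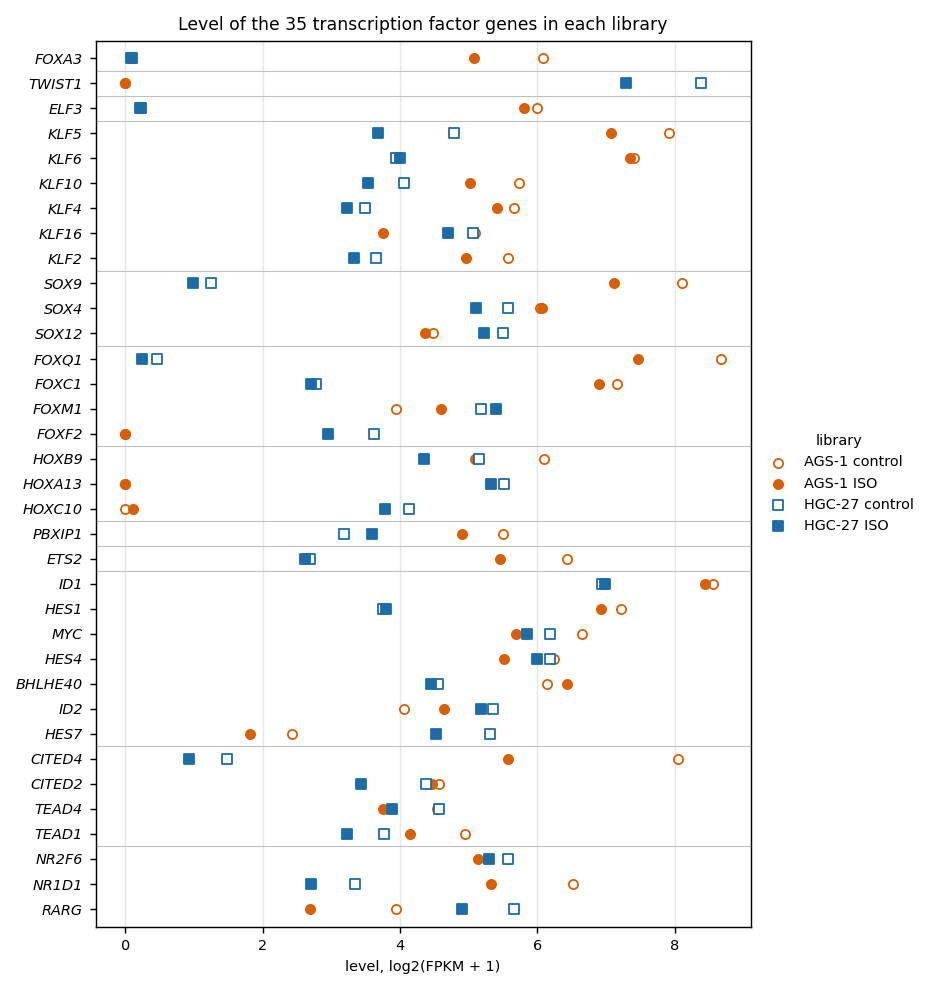
Level of each of the 35 genes in the 4 libraries, as log2(FPKM + 1) on the horizontal axis, with circles for AGS-1 and squares for HGC-27, open for control and filled for ISO, and lines between gene families. For FOXQ1, SOX9, CITED4, FOXA3 and ELF3 the circles lie far to the right of the squares, and for TWIST1, HOXA13, HOXC10 and FOXF2 the squares lie far to the right of the circles.

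Sequence upstream of the start sites is shown for 7 genes on which the results turn: CITED4, RARG and KLF16, which had the lowest ISO ratios in AGS-1, the chromosome 6 neighbours FOXQ1 and FOXF2 and the HOX gene HOXA13, which differed between the lines, and the epithelial factor ELF3. Each is the 250 bases before a RefSeq start site on GRCh38.p14, read 5′ to 3′ on the gene's strand. Capitals mark GC boxes (GGGCGG or its complement CCGCCC, the site of SP and KLF type zinc fingers) and TATA boxes (TATAAA or its complement). The windows are chr1:40862364-40862613 (minus strand) for CITED4, chr12:53232210-53232459 (minus strand) for RARG, chr19:1863580-1863829 (minus strand) for KLF16, chr6:1311848-1312097 (plus strand) for FOXQ1, chr6:1389326-1389575 (plus strand) for FOXF2, chr7:27200092-27200341 (minus strand) for HOXA13 and chr1:202010337-202010586 (plus strand) for ELF3.
CITED4: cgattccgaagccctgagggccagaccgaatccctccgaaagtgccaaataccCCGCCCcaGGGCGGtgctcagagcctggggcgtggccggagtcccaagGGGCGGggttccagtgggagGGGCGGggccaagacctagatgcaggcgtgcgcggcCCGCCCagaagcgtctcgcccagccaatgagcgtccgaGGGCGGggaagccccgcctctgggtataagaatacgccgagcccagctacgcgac
RARG: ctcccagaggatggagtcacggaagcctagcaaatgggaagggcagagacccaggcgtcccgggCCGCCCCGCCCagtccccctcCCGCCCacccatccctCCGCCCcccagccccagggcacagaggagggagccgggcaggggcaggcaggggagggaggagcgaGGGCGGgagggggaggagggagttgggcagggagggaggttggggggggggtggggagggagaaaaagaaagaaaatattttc
KLF16: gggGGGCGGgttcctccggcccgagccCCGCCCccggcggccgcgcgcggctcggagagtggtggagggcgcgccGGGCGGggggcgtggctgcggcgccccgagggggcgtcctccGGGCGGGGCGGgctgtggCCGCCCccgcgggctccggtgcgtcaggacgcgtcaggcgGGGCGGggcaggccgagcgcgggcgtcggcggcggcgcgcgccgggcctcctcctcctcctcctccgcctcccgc
FOXQ1: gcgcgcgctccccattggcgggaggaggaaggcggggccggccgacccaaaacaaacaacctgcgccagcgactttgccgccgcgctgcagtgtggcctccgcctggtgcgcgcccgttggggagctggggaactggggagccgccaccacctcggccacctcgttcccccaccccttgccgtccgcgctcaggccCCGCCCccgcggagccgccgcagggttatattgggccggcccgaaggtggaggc
FOXF2: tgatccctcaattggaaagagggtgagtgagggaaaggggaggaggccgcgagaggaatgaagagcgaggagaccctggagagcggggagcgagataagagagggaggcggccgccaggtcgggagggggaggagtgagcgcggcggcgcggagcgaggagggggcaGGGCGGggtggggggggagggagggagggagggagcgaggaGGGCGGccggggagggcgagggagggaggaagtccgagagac
HOXA13: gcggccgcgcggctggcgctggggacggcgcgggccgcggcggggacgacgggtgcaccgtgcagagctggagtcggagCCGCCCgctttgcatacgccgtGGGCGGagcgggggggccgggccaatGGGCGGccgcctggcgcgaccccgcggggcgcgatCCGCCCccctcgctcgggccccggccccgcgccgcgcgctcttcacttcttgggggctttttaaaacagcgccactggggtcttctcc
ELF3: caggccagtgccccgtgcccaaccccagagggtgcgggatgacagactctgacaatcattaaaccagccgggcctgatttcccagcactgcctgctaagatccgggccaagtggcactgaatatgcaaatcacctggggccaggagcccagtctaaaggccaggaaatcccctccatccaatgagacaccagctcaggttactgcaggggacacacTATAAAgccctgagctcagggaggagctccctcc
KLF16 held 7 GC boxes, CITED4 6, RARG 5, HOXA13 4, FOXF2 2 and FOXQ1 1, while ELF3 held 0 and had 1 TATA box. The RARG and ELF3 windows lie inside the genes as the table draws them, upstream of a start site other than the outermost one, so they are not the sequence at the table's gene start.

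RefSeq promoters were matched by symbol for 25 of the 35 members, which gave 29 windows. Their GC content was high, with a median of 69.2% and a range from 40.8% to 86.4%, against a median of 58.0% over all 35116 promoters and 66.0% over 3124 promoters of the other protein-coding genes of the table. A GC box on either strand was in 23 of 29 windows (79.3%), against 42.6% of all promoters and 69.5% of those of the other listed genes. TATAAA was in 4 windows (13.8%), at FOXA3, ID1, KLF5 and ELF3, against 10.7% and 5.57%. The MYC type E-box CACGTG was in 4 windows (13.8%), at BHLHE40, CITED2, KLF4 and KLF6, against 6.34% and 9.83%. The KLF type motif CCACCC was in 8 windows (27.6%), against 31.3% and 36.3%, and the TEAD type motif GGAATG in 2 (6.90%), against 11.9% and 9.19%. TGACTCA was in 0 of the 29 windows, against 4.20% and 3.01%, and TGACGTCA in 0, against 1.65% and 3.27%. The windows are not independent, since CITED2, ETS2 and KLF5 each gave more than a single window. Overlapping windows of CITED2 share a GC box. All motifs were searched on both strands and may overlap each other. These matches describe letters in a window and not bound sites.

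The first comparison asked which members differed with ISO in AGS-1. There, 6 members fell at least 2-fold, the threshold used for a change, and 0 rose. The genes that fell were CITED4, KLF16, RARG, FOXQ1, NR1D1 and HOXB9, with log2 ratios of FPKM + 1 from −2.48 to −1.004. Over all listed genes the share was 6.63% lower and 0.828% higher by this measure, and 6 of 35 members is 17.1%. With 1 library per condition there is no replicate check and no p-value within a line, and the standard errors given with the ratios cover counting error only. The split of 6 lower and 0 higher depends on the scaling, being 2 and 0 with median-of-ratios scaling and 1 and 1 with upper-quartile scaling, where FOXM1 counted as higher.

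Members were lower with ISO on the whole, as were most genes of the table. In AGS-1 the median log2 ratio of the members was −0.59 with 27 of 35 below 0, against a median of −0.29 and 78.6% below 0 over all genes. The 3 members without any fragment in AGS-1 enter this median with a ratio of 0. Relative to the median of all genes, the members' median was −0.31, and 19 of 35 lay below it. In HGC-27 the median of the members was −0.28 with 30 of 35 below 0, against −0.11 and 64.2% over all genes, and 26 of 35 lay below the median of all genes. Median-of-ratios scaling, which moved the all-gene medians to −0.02 and −0.05, left 20 of 35 members below 0 in AGS-1 and 30 of 35 in HGC-27.

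In HGC-27, 2 members fell at least 2-fold with ISO, KLF5 and TWIST1, and 0 rose. Upper-quartile scaling left 0 that fell, and with a pseudocount of 5 TWIST1 alone fell. Over all listed genes 0.932% fell and 0.552% rose by this measure, and 2 of 35 members is 5.71%. The members closest to the threshold from outside were CITED2 with a log2 ratio of −0.94, HOXB9 with −0.80, HES7 with −0.78 and RARG with −0.76. In AGS-1 the last member inside was HOXB9 with −1.004, and just outside were FOXA3 with −0.998, ETS2 and SOX9 with −0.99 and MYC with −0.97. These members of AGS-1 thus lay close to the threshold on either side.

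**Figure D2:**
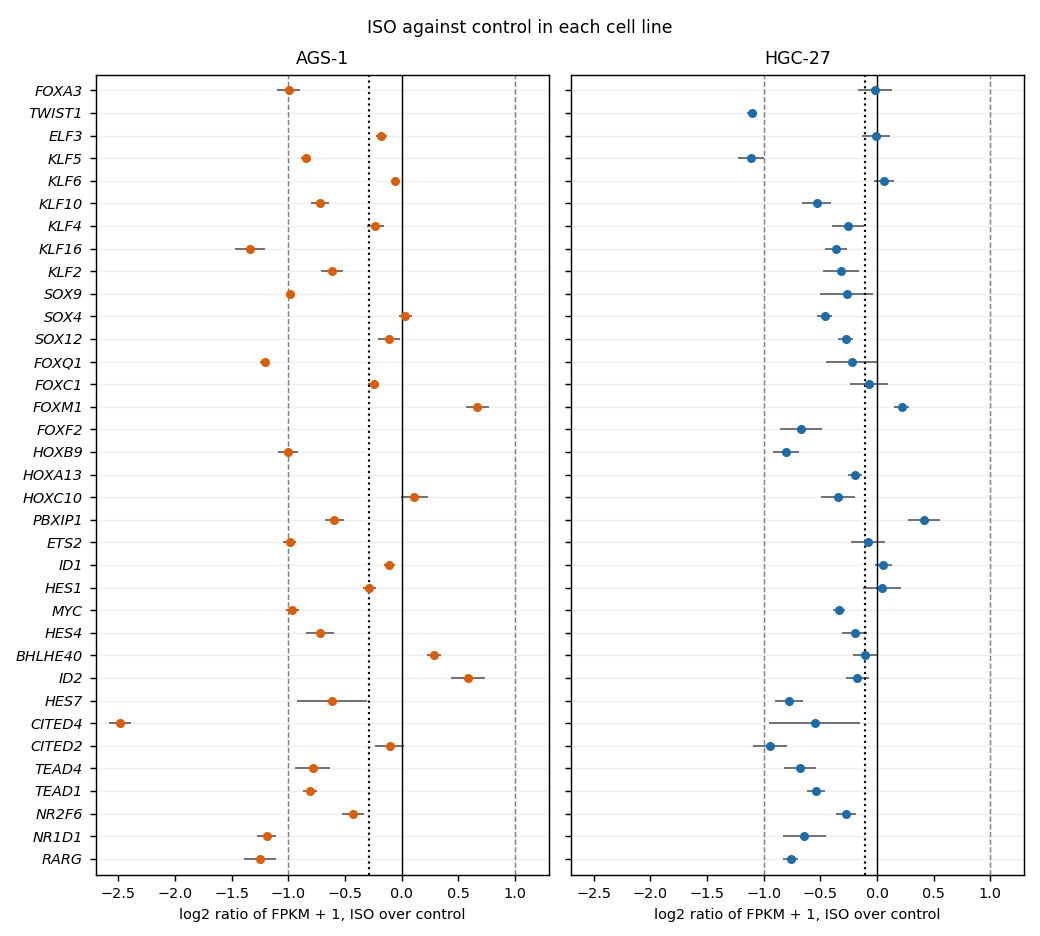
Log2 ratio of FPKM + 1, ISO over control, for each gene in AGS-1 (left) and HGC-27 (right), with bars of 95% counting error. Dashed lines mark a 2-fold change, dotted lines the median of all genes at −0.29 and −0.11, and TWIST1, FOXF2 and HOXA13 have no point in AGS-1, where they had no fragment. CITED4 at −2.48 in AGS-1 lies apart from the other genes.

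The coactivator group held the largest single difference. CITED4, a coactivator that binds the histone acetyltransferases CBP and p300 (ENSG00000179862, chromosome 1, 40861054 to 40862363, minus strand), was at 264 FPKM in untreated and 46.5 FPKM in ISO-treated AGS-1 cells, while HGC-27 held 1.78 and 0.894 FPKM. The log2 ratio of CITED4 was −2.48 (counting SE 0.049) in AGS-1, and in HGC-27 it was −0.55 (0.203). The AGS-1 control thus stood far above the other 3 libraries. CITED2, a paralog that competes with HIF for the same acetyltransferases, had 22.8 and 21.1 FPKM in AGS-1 and 19.8 and 9.83 FPKM in HGC-27. Only the HGC-27 ISO library was low, with a log2 ratio of −0.94 (counting SE 0.076) against −0.11 (0.066) in AGS-1. The larger ratio was in AGS-1 for CITED4 and in HGC-27 for CITED2.

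TEAD factors bind DNA for the coactivators YAP and TAZ of the Hippo pathway. TEAD4 was at 22.3 and 12.5 FPKM in AGS-1 and at 22.7 and 13.7 FPKM in HGC-27, nearly the same pair of levels in both lines. TEAD1 was at 29.9 and 16.6 FPKM in AGS-1 and at 12.7 and 8.397 FPKM in HGC-27. Both TEAD genes were lower with ISO in both lines, with log2 ratios from −0.81 to −0.54. CCN2, a much used target of YAP and of TGF-beta signals, was at 130 and 108 FPKM in AGS-1 and 7.92 and 3.51 FPKM in HGC-27. Its log2 ratio in AGS-1 was −0.26, near the median of all genes at −0.29. There it was 0.01 with median-of-ratios and 0.15 with upper-quartile scaling. In HGC-27 it was −0.98, and −0.94 and −0.87 with those scalings. Whether the output of TEAD factors changed was not tested.

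All 3 nuclear receptors had ISO ratios below 0 in both lines, under each of the 3 scalings. With upper-quartile scaling NR2F6 in AGS-1 was at −0.015, which is within its counting SE of 0.049. Of all genes, 78.6% were below 0 in AGS-1 and 64.2% in HGC-27 with the deposited scaling. RARG, the retinoic acid receptor gamma (ENSG00000172819, chromosome 12, 53210567 to 53232980, minus strand), was at 14.4 FPKM in untreated and 5.46 FPKM in ISO-treated AGS-1 cells, and at 49.6 and 28.9 FPKM in HGC-27. Its log2 ratios were −1.25 (counting SE 0.070) and −0.76 (0.034), and both ISO libraries lay below the control of their line. NR1D1, the circadian repressor REV-ERB alpha, was at 90.4 and 39.0 FPKM in AGS-1 and at 9.17 and 5.52 FPKM in HGC-27, with log2 ratios of −1.19 (0.042) and −0.64 (0.097). NR2F6, an orphan receptor of the COUP-TF family, was at 46.5 and 34.3 FPKM in AGS-1 and at 46.3 and 38.1 FPKM in HGC-27, ratios of −0.43 and −0.28 that are smaller than for the other receptors. NR1D1 shares 263 exonic bases (9.49%) with THRA on the opposite strand. Whether the counting used the strand is not given in the sources used here, so reads of the 2 genes in that stretch cannot be told apart.

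Of 18 genes written down as nuclear receptor coregulators and retinoid handling genes, 4 were in the table and 0 of them changed 2-fold in either line. CRABP2, which carries retinoic acid to its receptors, was at 156 and 101 FPKM in AGS-1 and 285 and 176 FPKM in HGC-27. NCOA4 was at 36.6 and 22.8 FPKM in AGS-1 and 38.5 and 35.4 FPKM in HGC-27. The 4 genes had median log2 ratios of −0.59 (AGS-1) and −0.15 (HGC-27), where all genes had −0.29 and −0.11. Of 18 PPAR target genes, 4 were in the table, 0 changed 2-fold, and their medians were −0.04 and 0.19. ACADVL, an enzyme of fatty acid oxidation, was the highest of these at 115 and 122 FPKM in AGS-1 and 36.0 and 45.3 FPKM in HGC-27.

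KLF genes encode zinc finger factors that bind GC-rich and CACCC sites, and 6 were in the table. The family median of the log2 ratio was −0.67 in AGS-1, with 6 of 6 below 0. With either other scaling 4 of 6 were below 0 there, and KLF4 and KLF6 were above 0. In HGC-27 the family median was −0.34, with 5 of 6 below 0 under each scaling. Of all genes, 78.6% were below 0 in AGS-1 and 64.2% in HGC-27 with the deposited scaling. KLF5, which promotes growth of gut epithelium (ENSG00000102554, chromosome 13, 73054976 to 73077541, plus strand), was at 241 and 133 FPKM in AGS-1 and at 26.6 and 11.8 FPKM in HGC-27, with log2 ratios of −0.85 (counting SE 0.020) and −1.11 (0.058). In HGC-27 this ratio and that of TWIST1 were the lowest of the members and differed by less than their counting errors. KLF16, of the same family, was at 33.2 and 12.5 FPKM in AGS-1 and at 32.5 and 25.04 FPKM in HGC-27. Its controls were alike in the lines and the AGS-1 ISO library was the low one, with log2 ratios of −1.34 (0.066) and −0.36 (0.050). An antisense gene covers 483 of its exonic bases (16.3%), and reads from the 2 cannot be told apart without strand.

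The other 4 KLF genes did not change 2-fold in either line. KLF6 was the second highest KLF, at 168 and 161 FPKM in AGS-1 and 14.3 and 15 FPKM in HGC-27, with ratios of −0.06 and 0.06. KLF10, a TGF-beta inducible repressor, had ratios of −0.72 and −0.53, KLF2 of −0.61 and −0.32, and KLF4 of −0.23 and −0.26. KLF4 was at 49.3 and 41.8 FPKM in AGS-1 and at 10.2 and 8.397 FPKM in HGC-27. The paired factors KLF4 and KLF5 thus had different ratios in each line, with KLF5 the lower one in both.

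Among the forkhead genes, FOXQ1 (ENSG00000164379) was at 407 FPKM in the AGS-1 control, 175 FPKM with ISO, and 0.372 and 0.176 FPKM in HGC-27. The ratio in AGS-1 was −1.21 on the log2 scale with a counting SE of 0.020. FOXC1, a regulator of mesenchyme and vessels, was at 141 and 119 FPKM in AGS-1 and 5.84 and 5.50 FPKM in HGC-27, with ratios of −0.25 and −0.07. FOXM1, which drives genes of mitosis, had the highest ratio of the members in AGS-1. It was at 14.3 and 23.3 FPKM there and at 35.1 and 40.9 FPKM in HGC-27, with log2 ratios of 0.67 (counting SE 0.052) and 0.22 (0.034), so that ISO libraries were the higher ones in both lines. FOXM1 shares 781 exonic bases (15.9%) with ITFG2 on the opposite strand. FOXA3, a foregut and liver pioneer factor, was at 66.7 and 32.9 FPKM in AGS-1, a log2 ratio of −0.998 (0.052), and at 0.0699 and 0.0551 FPKM in HGC-27, where it rested on 3 and 2 fragments.

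SOX9 was at 274 FPKM in the AGS-1 control, 138 FPKM with ISO, and 1.37 and 0.969 FPKM in HGC-27. Its log2 ratio of −0.99 (counting SE 0.019) in AGS-1 lies just outside the threshold. SOX4 was at 64.4 and 65.8 FPKM in AGS-1 and at 46.4 and 33.5 FPKM in HGC-27, so that only the HGC-27 ISO library was lower, with a ratio of −0.46 (0.034). SOX12, which belongs to the same subgroup as SOX4, was at 21.2 and 19.6 FPKM in AGS-1 and 44.1 and 36.3 FPKM in HGC-27. ETS2, an ETS factor downstream of MAP kinase, was at 85.6 and 42.7 FPKM in AGS-1, a ratio of −0.99 (0.030), and at 5.46 and 5.12 FPKM in HGC-27. ELF3, the epithelial ETS factor, was at 62.5 and 55.0 FPKM in AGS-1 and at 0.172 and 0.163 FPKM in HGC-27. In AGS-1 its ratio of −0.18 (0.025) was thus far smaller than that of ETS2. In HGC-27 the ratios were −0.01 (0.062) for ELF3 and −0.08 (0.078) for ETS2, both small beside their counting errors.

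The HOX genes split by line. HOXB9, the only listed HOX gene above 1 FPKM in both lines, was at 67.3 and 33.1 FPKM in AGS-1 and at 34.4 and 19.3 FPKM in HGC-27, with log2 ratios of −1.004 (counting SE 0.047) and −0.80 (0.057). Both ISO libraries were lower than their controls, and AGS-1 with ISO reached about the level of the HGC-27 control. HOXA13, which patterns the hindgut and limb tips (ENSG00000106031, chromosome 7, 27193503 to 27200091, minus strand), had 0 fragments in both AGS-1 libraries and was at 44.8 and 38.9 FPKM in HGC-27. HOXC10 had 0 fragments in control and 3 in ISO-treated AGS-1 cells, and was at 16.5 and 12.8 FPKM in HGC-27, where its ratio was −0.34 (0.076). PBXIP1, whose product binds the HOX cofactor PBX, was at 44.3 and 28.98 FPKM in AGS-1 and at 8.07 and 11.1 FPKM in HGC-27, lower with ISO in one line and higher in the other.

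TWIST1 (ENSG00000122691, chromosome 7, 19020991 to 19117636, minus strand) had 0 fragments in both AGS-1 libraries, and 334 FPKM in the HGC-27 control and 155 FPKM with ISO, on 13463 and 5285 fragments. Its log2 ratio in HGC-27 was −1.10 with a counting SE of 0.023. Mesenchymal markers in the same pair of libraries moved less, with VIM at 306 and 249 FPKM, COL1A1 at 348 and 313 FPKM and SPARC at 94.2 and 79.6 FPKM. Of these 4 mesenchymal markers, 0 changed 2-fold in either line. In bulk RNA, fewer cells with a gene on and less RNA per cell cannot be told apart.

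Among the 7 helix-loop-helix and MYC genes none changed 2-fold in either line. MYC was at 99.3 and 50.3 FPKM in AGS-1, a log2 ratio of −0.97 (counting SE 0.029), and at 71.7 and 56.6 FPKM in HGC-27, a ratio of −0.34 (0.028). Of 20 genes written down as the MYC network, 9 were in the table with median ratios of −0.31 (AGS-1) and −0.19 (HGC-27). The medians of all genes were −0.29 and −0.11, so the list lay close to them, and a link to the level of MYC was not tested. One of the 9, TFRC, the transferrin receptor, rose at least 2-fold in both lines. Of all genes, 0.828% rose by this measure in AGS-1 and 0.552% in HGC-27. TFRC was at 13.2 FPKM in the control and 32.0 FPKM with ISO in AGS-1, and at 18.0 and 70.1 FPKM in HGC-27. Its shared rise passed the limma test described below (adjusted p = 0.00633). It did not pass limma after median-of-ratios (adjusted p = 0.0517) or upper-quartile scaling (adjusted p = 0.0912). NPM1 and NCL, nucleolar genes of this list, were at 89.9 and 71.6 FPKM and at 90.3 and 67.7 FPKM in AGS-1, and at 139 and 136 FPKM and at 120 and 144 FPKM in HGC-27. MYC itself did not pass that test (adjusted p = 0.155 by limma).

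HES and HEY genes are direct targets of Notch. HES1 was at 148 and 121 FPKM in AGS-1 and at 12.5 and 12.9 FPKM in HGC-27, with ratios of −0.29 and 0.04. HES4 was at 74.4 and 44.7 FPKM in AGS-1 and at 71.8 and 62.5 FPKM in HGC-27, with ratios of −0.72 and −0.20. HES7, known from the segmentation clock, was at 4.36 and 2.50 FPKM in AGS-1 and at 38.5 and 22.1 FPKM in HGC-27, with ratios of −0.62 (counting SE 0.159) and −0.78 (0.064). HES7 thus had the lowest HES ratio in HGC-27, while in AGS-1 the ratios of HES4 and HES7 differed by less than the counting error of HES7. Of 23 Notch pathway genes 5 were in the table, with medians of −0.23 and −0.18, where all genes had −0.29 and −0.11. In AGS-1, 1 of the 5 fell 2-fold (0 with upper-quartile scaling), against 6.63% of all genes. The gene that fell was NRARP, a Notch feedback inhibitor, at 41.9 and 16.3 FPKM in AGS-1 and 9.24 and 10.3 FPKM in HGC-27.

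ID1 stood at 374 and 347 FPKM in AGS-1 and at 121 and 126 FPKM in HGC-27, ratios of −0.11 and 0.06. ID2 was at 15.7 and 24.0 FPKM in AGS-1 and at 40.0 and 35.4 FPKM in HGC-27, ratios of 0.59 (counting SE 0.076) and −0.17 (0.051). BHLHE40, a stress and clock repressor, was at 69.5 and 84.9 FPKM in AGS-1 and at 22.5 and 20.8 FPKM in HGC-27, ratios of 0.28 (0.031) and −0.11 (0.052). ID2 and BHLHE40 were thus higher with ISO in AGS-1 while most members were lower, and in HGC-27 upper-quartile scaling put BHLHE40 at 0.04. Of 26 TGF-beta and BMP genes 8 were in the table, and their median ratios were −0.36 (AGS-1) and −0.67 (HGC-27). The medians of all genes were −0.29 and −0.11. In AGS-1, 3 of the 8 fell at least 2-fold, which were BAMBI, TGFB1 and INHBE, and in HGC-27 2 fell, INHBE and LTBP1, where all genes had shares of 6.63% and 0.932%. With either other scaling only INHBE fell in AGS-1, and both genes still fell in HGC-27. INHBE passed the limma test of a shared change (adjusted p = 0.00633), but not after median-of-ratios (0.0629) or upper-quartile scaling (0.133). The ligand TGFB1 was at 122 and 51.9 FPKM in AGS-1 and at 52.7 and 40.8 FPKM in HGC-27, and INHBE, a further ligand gene of the family, at 15.2 and 4.18 FPKM and at 57.1 and 23.5 FPKM.

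The second comparison asked which ISO changes were shared. limma was fitted to log2(FPKM + 1) of the 2883 genes that averaged 1 FPKM or more, with terms for line and treatment. This leaves 1 residual degree of freedom, so the test rests on a spread borrowed across genes, and nothing shows that the libraries came from separate cultures. RARG was the only member with a Benjamini-Hochberg adjusted p under 0.05, with a log2 difference of −1.005 (SE 0.199, adjusted p = 0.0334) and lower in 2 of 2 lines. Over all genes 0.832% passed as lower and 0.104% as higher, and 1 of 35 members is 2.86%. The call for RARG did not hold under other scalings, with an adjusted p of 0.165 after median-of-ratios and 0.226 after upper-quartile scaling, and over all alternatives that limma value ran from 0.00149 to 1.00.

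Several members lay just above the threshold in the same limma fit. KLF5 had a shared log2 difference of −0.98 and HOXB9 of −0.90, both with an adjusted p of 0.0510, NR1D1 of −0.92 (adjusted p = 0.0516) and CITED4 of −1.52 (adjusted p = 0.0549). TEAD4 followed with −0.73 (adjusted p = 0.0914) and KLF16 with −0.85 (adjusted p = 0.103). At an unadjusted limma p under 0.05, 17 of 35 members were lower and 1 was higher, against 514 and 64 of 2883 genes tested. These are uncorrected calls on the deposited scaling, with which most genes of the table were lower with ISO. For TWIST1, HOXA13 and FOXF2 the shared value averages a line without any fragment with HGC-27. For CITED4 it averages −2.48 in AGS-1 with −0.55 in HGC-27, where the gene rested on 47 and 20 fragments. FOXQ1, FOXA3 and ELF3 averaged under 1 FPKM in HGC-27, as did HOXC10 in AGS-1. Of the 35 shared differences 31 were below 0 with the deposited scaling and 26 with median-of-ratios scaling. The same count over all genes was not made. Within the lines, 78.6% (AGS-1) and 64.2% (HGC-27) of all genes were below 0 with the deposited scaling.

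**Figure D3:**
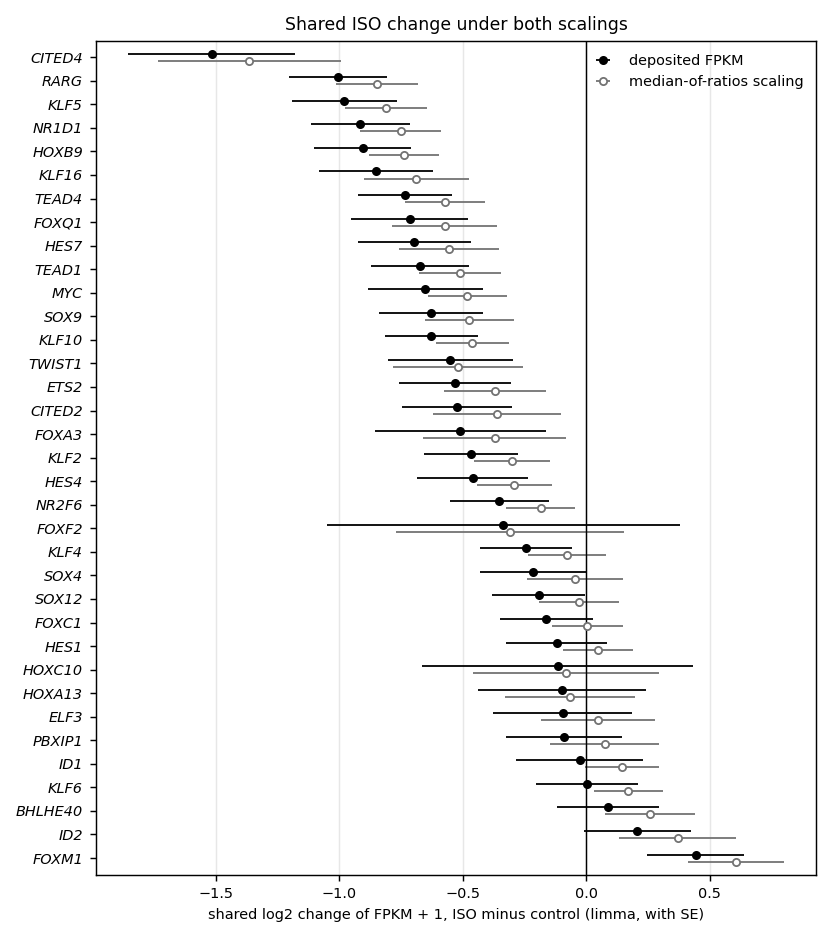
Shared log2 difference of FPKM + 1, ISO minus control, over both lines from limma, with standard errors, for deposited FPKM (filled) and after median-of-ratios scaling (open). CITED4 is lowest at −1.52 and −1.36, and the open points lie to the right of the filled ones by at most 0.171.

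Ratios in the lines went together to a limited extent. Over the 26 members with at least 1 FPKM in every library, 18 were below 0 in both lines, 1 was above 0 in both and 7 had opposite signs. Over 2702 genes of the table these counts were 1546, 364 and 792. Across these genes, which share libraries and scaling and are not independent replicates, Pearson's r was 0.47 and Spearman's rho 0.52, against 0.40 and 0.43 over those 2702 genes. The member above 0 in both lines was FOXM1.

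The third comparison was between the lines. In the same limma fit, 30 of 35 members differed between AGS-1 and HGC-27, with 21 higher in AGS-1 and 9 higher in HGC-27. Over all genes 32.2% passed as higher in AGS-1 and 24.7% as higher in HGC-27, and the members' shares were 60.0% and 25.7%. Upper-quartile scaling turned the all-gene split from 928 and 711 to 797 and 1047 and gave 19 and 11 for the members, where SOX4 and CITED2 no longer passed and KLF16 and HES4 did. The median absolute log2 difference was 1.963 for the members against 0.62 for all genes tested, and 17 members (48.6%) differed at least 4-fold against 13.5% of all genes. Line, culture and library cannot be told apart in this design, and these shares are over genes that mostly entered the table with a high mean level.

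**Figure D4:**
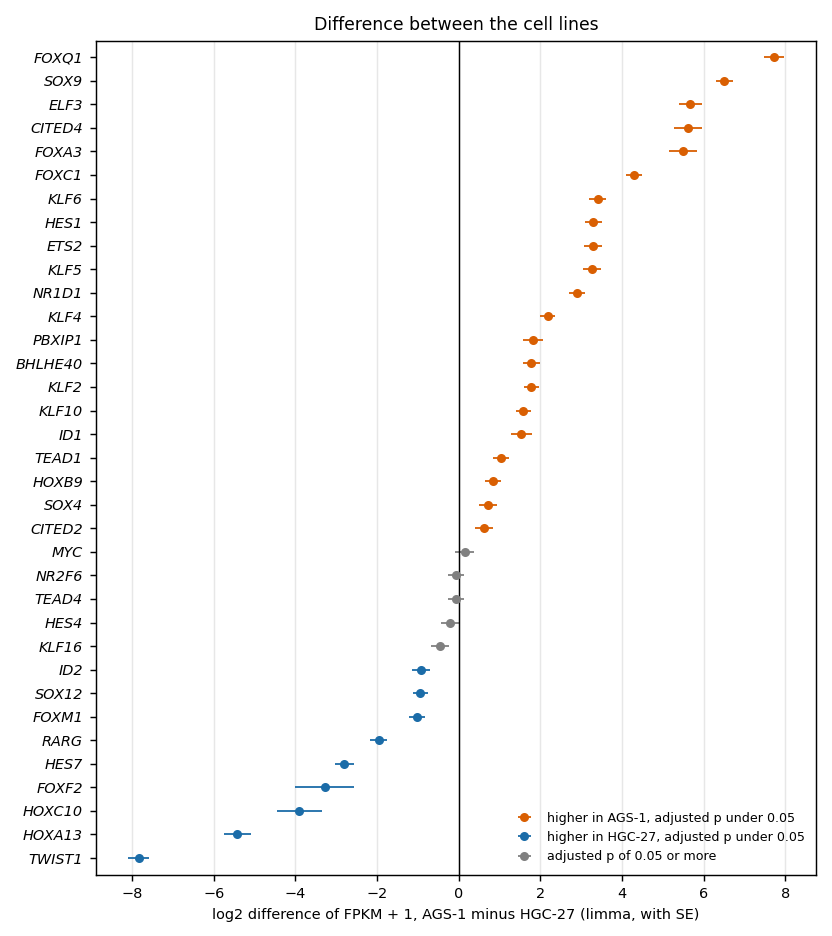
Log2 difference of FPKM + 1, AGS-1 minus HGC-27, over the control and ISO libraries from limma, with standard errors, ordered by size. FOXQ1 at 7.72 and SOX9 at 6.50 lead towards AGS-1, TWIST1 at −7.84 and HOXA13 at −5.42 towards HGC-27, and MYC, NR2F6, TEAD4, HES4 and KLF16 have an adjusted p of 0.05 or more.

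The genes higher in AGS-1 included the gut regulator FOXA3 and the epithelial regulator ELF3, but also FOXC1, a regulator of mesenchyme and vessels. FOXQ1 differed by a log2 value of 7.72 (SE 0.235), SOX9 by 6.50 (SE 0.212), ELF3 by 5.67, CITED4 by 5.61, FOXA3 by 5.49 and FOXC1 by 4.29. On fragments pooled over the control and ISO libraries of each line, FOXQ1 was 1021-fold higher in AGS-1 (95% counting interval 706 to 1537), FOXA3 783-fold (335 to 2414, against 5 fragments in HGC-27), ELF3 349-fold (261 to 479), SOX9 172-fold (148 to 201) and CITED4 111-fold (87.6 to 144). KLF6, HES1, ETS2, KLF5 and NR1D1 followed with log2 differences from 3.40 to 2.89, and KLF4, PBXIP1, BHLHE40, KLF2, KLF10, ID1 and TEAD1 with 2.18 to 1.04. HOXB9 (0.85), SOX4 (0.71) and CITED2 (0.61, adjusted p = 0.0325) were the smallest differences that passed the limma test. Gut epithelium markers ran with these genes, 3 of 10 being in the table (CDH17, MUC1 and MUC13) at a sum of 176 and 123 FPKM in AGS-1 and 5.48 and 3.88 FPKM in HGC-27, and their part in the result was not tested.

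The genes higher in HGC-27 were TWIST1, HOXA13, HOXC10, FOXF2, HES7, RARG, FOXM1, SOX12 and ID2. With 0 fragments in AGS-1 set to a floor of 3 fragments over both libraries, TWIST1 was at least 5230-fold higher in HGC-27, HOXA13 at least 2221-fold and FOXF2 at least 234-fold. The exact 95% counting intervals, which use no floor, began lower, at 4253-fold, 1806-fold and 190-fold. HOXC10, with 3 fragments in AGS-1 against 1306, was 364-fold higher (95% counting interval 124 to 1769). HES7 was 9.08-fold higher and RARG 4.09-fold, while FOXM1, SOX12 and ID2 lay between 1.90-fold and 1.999-fold. The posterior and limb HOX genes HOXA13 and HOXC10 were thus detected in HGC-27, and at most at 3 fragments in AGS-1.

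Neighbouring forkhead genes on chromosome 6 went different ways between the lines. FOXQ1 (1312098 to 1314758), FOXF2 (1389576 to 1395603) and FOXC1 (1609915 to 1613897, all on the plus strand of GRCh38) start within 297817 bases. FOXQ1 and FOXC1 were higher in AGS-1, while FOXF2, whose start is 77478 bases from that of FOXQ1, had 0 fragments in both AGS-1 libraries and 11.3 and 6.72 FPKM in HGC-27. FOXF2 thus sat between the other pair in position and opposite to them in level. The promoters printed for FOXQ1 and FOXF2 had a GC content of 74.0% and 70.8%.

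For 5 members the limma test found no difference between the lines. The log2 difference, AGS-1 minus HGC-27, was 0.15 for MYC (adjusted p = 0.608), −0.07 for TEAD4 (adjusted p = 0.764), −0.07 for NR2F6 (adjusted p = 0.777), −0.21 for HES4 (adjusted p = 0.446) and −0.46 for KLF16 (adjusted p = 0.110). A missed threshold does not show equal levels. Ordered by level in the AGS-1 control, the neighbours HES4 at 74.4, BHLHE40 at 69.5, HOXB9 at 67.3 and FOXA3 at 66.7 FPKM lay close together, and no replicate allows their order to be tested.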

How the data were processed

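The authors deposited 1 table of FPKM values for 2897 genes in 4 mRNA-seq libraries, 1 per condition and cell line, with gene length, type and domain. The submitters' processing notes name CASAVA 1.8, HISAT2 and GRCh38 (hg38), with no role given. The counting tool, annotation, strand setting and how the 2897 genes were selected are not given in the sources used here.

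Within each library, 100% of FPKM values times gene length came out as whole fragments (tolerance 0.1 fragment). Recovered fragments gave library totals, counting errors (delta method) and fragment ratios with exact 95% intervals, which cover counting error only. 3 fragments are 1.49e-05% to 1.97e-05% of a library.

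Log2 ratios used a pseudocount of 1 FPKM, which understates changes of low genes, and a change was 2-fold. limma 3.58.1 in R 4.3.3 (lmFit, eBayes with a trend) was fitted to log2(FPKM + 1) of genes averaging 1 FPKM or more, with line and treatment as terms and Benjamini-Hochberg adjustment over all genes at 0.05. It was also run on simulated data with the same residual spread for every gene and no shift between libraries. That run cannot show how the fit behaves on these libraries. Python 3.11.15, pandas 2.3.3, numpy 2.4.6, scipy 1.17.1 and matplotlib 3.10.9 did the rest.

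Members, families and gene lists were chosen with earlier results of these data known. Values in all libraries are given for members that changed 2-fold, had the 5 highest or lowest ratios in a line, were among the 8 largest line differences in each direction, passed limma, or led their family. A gene of the TGF-beta list is not reported here and was left out of that list's counts. From the other lists, genes that changed 2-fold or had high levels are named. CCN2, and the further members given with values, were named outside that rule after their values were seen. All 35 members were found in GENCODE 29 and 12 share exonic bases with another gene. Promoters came from RefSeq (GRCh38.p14). Alternatives were pseudocounts of 0.1 and 5, filters, scalings, limma without the trend, voom on recovered fragments, and models without line or treatment.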

Additional observations from a re-analysis of the deposited data

Results flagged for a closer look

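The ISO ratios of BHLHE40, ID2 and PBXIP1 lay on opposite sides of 0 in the 2 lines, each by more than its counting SE. The same held for KLF6, ID1, SOX4 and HOXC10, but with a ratio nearer to its counting SE in 1 line. That ratio was 0.031 (counting SE 0.029) for SOX4 and 0.110 (0.061) for HOXC10 in AGS-1. In HGC-27 it was 0.062 (0.047) for KLF6 and 0.056 (0.038) for ID1. In AGS-1 the log2 ratio was 0.28 for BHLHE40, 0.59 for ID2 and −0.59 for PBXIP1. In HGC-27 it was −0.11 for BHLHE40, −0.17 for ID2 and 0.41 for PBXIP1. With 1 library per condition and line, the difference between the lines was not tested. With upper-quartile scaling BHLHE40 was above 0 in HGC-27 as well, at 0.04. Relative to the median of all genes, BHLHE40 and ID2 were at 0.57 and 0.87 in AGS-1 and at −0.0016 and −0.07 in HGC-27, and PBXIP1 was at −0.31 and 0.52.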

How the results depend on the processing

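The number of members changed at least 2-fold in AGS-1, 6 as reported, was 2 with median-of-ratios scaling (CITED4 and KLF16) and 2 with upper-quartile scaling (CITED4 lower, FOXM1 higher). In HGC-27, 2 as reported, it was 1 with a pseudocount of 5 (TWIST1) and 0 with upper-quartile scaling. The number of members with a shared change by limma, 1 as reported, was 8 with a pseudocount of 0.1, 7 when the test kept genes averaging 10 FPKM or more and 9 with limma voom on recovered fragments. It was 0 with a pseudocount of 5, with all genes of the table, with each of the other 2 scalings, without the trend, and without the cell line block. RARG was among the members called in each of the 3 larger sets. Over all genes the shared calls were 24 lower and 3 higher as reported, 99 and 8 with a pseudocount of 0.1, 93 and 11 at 10 FPKM, 193 and 15 with voom, 9 and 3 with a pseudocount of 5, 4 and 2 with all genes, 4 and 2 without the trend, and 0 with either other scaling. The number of members that differed between the lines was 27 to 30 under the alternatives. SOX4, HOXB9 or CITED2 no longer passed under some of them, KLF16 and HES4 passed with upper-quartile scaling, and FOXF2 and HOXC10 were below the filter of 10 FPKM. No called ratio or difference changed its sign. Leaving out a library leaves no residual degree of freedom, so it was not run. The line term pairs each ISO library with the control of its line, and without that block the adjusted p of RARG by limma was 1.00 in place of 0.0334. The labels carry no replicate numbers for another pairing. The scalings of the other gene lists were added after seeing the data. What the scaling changes are due to was not tested.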
